A study of Homo sapiens with 48 samples.

Results

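The genes described here encode the proteins of the mitochondrial ribosome (MRPs). They were chosen by name alone, as the rows of the count table whose symbol is MRPL or MRPS followed by a number and at most one of the letters A to C. This gave 78 of 58302 genes, which lie on 21 chromosomes. By role, 16 encode small-subunit proteins with a bacterial homologue, 10 small-subunit proteins particular to mitochondria, 30 large-subunit proteins with a bacterial homologue and 21 large-subunit proteins particular to mitochondria. The last, MRPS36, keeps its ribosomal name although its product serves as an adapter of the 2-oxoglutarate dehydrogenase complex.

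As background, the mitochondrial ribosome translates the few mRNAs that are encoded by mitochondrial DNA, all of which specify subunits of the respiratory chain and of ATP synthase. Its RNA comes from mitochondrial DNA, whereas all of its proteins are encoded in the nucleus, made in the cytosol and imported. Tetracyclines such as doxycycline (Dox) bind bacterial ribosomes and can also inhibit the mitochondrial ribosome, and Dox is the inducer used in these cells.

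mRNA was sequenced from AMO1, an established human multiple myeloma line of plasma cell character, carrying short hairpin RNAs (shRNAs) under a Dox-inducible promoter. The shIRE1 clones 1 and 3 held shRNAs 7, 8 and 9 against IRE1 (gene ERN1), which senses unfolded proteins in the endoplasmic reticulum, and the shXBP1 clones 1 and 18 held shRNAs 4, 6 and 7 against XBP1, the transcription factor whose mRNA IRE1 splices. Each was taken after 0, 24, 48 and 72 h with 0.2 μg/ml Dox in 3 biological replicates, so that 16 groups and 48 libraries were compared. Each line is 1 clone grown from a single cell and picked for its knockdown, and all carry the same kind of vector with a puromycin marker. No line with a non-targeting shRNA was analysed here, so within a clone an effect of Dox on the MRP genes cannot be told apart from an effect of the knockdown. Because whole cultures were measured, fewer cells holding an mRNA and less of it per cell cannot be told apart either.

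The libraries held between 19177855 and 40767202 counts, 30776246 at the median. ERN1 went from 151, 152 and 155 CPM at 0 h to 104, 102 and 102 at 72 h in shIRE1 clone 1 and from 414, 447 and 436 to 123, 125 and 129 in clone 3 (log2 fold changes -0.58 and -1.82). XBP1 went from 158, 172 and 171 to 32.9, 34.1 and 35.1 CPM in shXBP1 clone 1 and from 164, 178 and 165 to 41.3, 39.7 and 31.9 in clone 18 (-2.32 and -2.16). The library labelled shXBP1 clone 18, 72 h, replicate 3 differed by a mean absolute log2 value of 0.13 per gene from the 72 h libraries of clone 1 and by 0.259 from its own group, so results of clone 18 are also given without it. All 8 plasma cell markers were detected in each of the 48 libraries, with SDC1 (CD138) between 5130 and 15200 CPM (a gene's count relative to the TMM-scaled library total). Of the markers of other cells, HBB was at most 0.149, PAX5 at most 0.0388 and LYZ at most 0.258 CPM, and the T cell marker CD3E was higher, between 4.57 and 17.5 CPM.

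MRP mRNAs spanned a wide range of levels. After division by transcript length, the levels averaged over the 48 libraries had a median of 40.2 CPM per kilobase among the 78 genes. On that scale MRPL51, a large-subunit protein particular to mitochondria, was highest at 151, followed by MRPS21, a homologue of bacterial S21. MRPS18C, one of 3 human relatives of the bacterial protein S18, stood at 1.5 CPM per kilobase. MRPS24 was lowest at 0.189 CPM per kilobase, and its mean of 0.126 CPM kept it out of the within-clone tests, which left 77 members. MRPS24 overlaps the readthrough gene URGCP-MRPS24, and 49 of the 78 genes overlap at least one other annotated gene. How reads in such overlaps were counted is not stated, so the levels of these genes are uncertain in part.

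Promoter sequence was examined because the MRP genes lie far apart but serve one particle. RefSeq windows from 250 bases before to 50 bases after the transcription start (GRCh38.p14) were found for 69 members, in 85 windows. The letters CCGGAAGT or their reverse complement ACTTCCGG, the core bound by ETS factors such as GABP, were present in 16.5% of the member windows and in 4.14% of 35116 windows of all genes. The letters AAGATGGC or GCCATCTT, the core bound by YY1, were present in 27.1% and 2.89%. The palindromic NRF1 motif (1.18% and 1.24%), the E-box CACGTG (10.6% and 7.26%) and the CCAAT box (CCAAT or ATTGG, 32.9% and 34.6%) had shares closer to those of all windows. The promoters of 3 members with the ETS letters are shown as the 150 bases before the start, in capitals at the match, because their genes differed in direction. MRPL27 (minus strand, chr17:50373185-50373334) holds the letters in 2 copies, and its mRNA rose in both shIRE1 clones. MRPL3 (minus strand, chr3:131502972-131503121) and MRPS34 (minus strand, chr16:1773135-1773284) hold them in 1 copy, and their mRNAs fell in 3 of 4 clones.
MRPL27: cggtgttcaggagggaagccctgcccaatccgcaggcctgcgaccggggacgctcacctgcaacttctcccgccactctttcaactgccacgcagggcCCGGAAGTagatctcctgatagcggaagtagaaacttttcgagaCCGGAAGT
MRPL3: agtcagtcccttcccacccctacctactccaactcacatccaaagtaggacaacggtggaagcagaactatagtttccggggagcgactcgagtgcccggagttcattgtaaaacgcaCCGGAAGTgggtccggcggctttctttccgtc
MRPS34: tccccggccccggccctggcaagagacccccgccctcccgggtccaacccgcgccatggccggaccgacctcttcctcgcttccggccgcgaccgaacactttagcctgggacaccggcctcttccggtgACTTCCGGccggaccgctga

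In shIRE1 clone 1 the MRP mRNAs fell on balance within 24 h of Dox and stayed low. At 24 h 38 of 77 members fell and 8 rose (edgeR quasi-likelihood test, adjusted p under 0.05), when 29.0% of all genes fell and 32.4% rose. At 48 h 52 fell and 5 rose (all genes, 31.5% and 33.9%), and at 72 h 50 fell and 6 rose (31.1% and 32.5%). The median log2 fold change of the members was -0.15, -0.27 and -0.26, and that of all genes 0.04, 0.03 and 0.02. Scaling by library totals alone, which took the median of all genes to 0.20, 0.17 and 0.16, turned the member median at 24 h to 0.01 and gave 18, 34 and 36 members lower and 19, 10 and 13 higher. With upper quartile factors 27 and 43 were lower and 15 and 10 higher at 24 and 48 h. At 72 h 66 of the 77 fitted values lay below 0, with a range of -0.89 to 0.41.

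In shIRE1 clone 3 the decrease appeared later. At 24 h 17 members fell and 13 rose (all genes, 23.3% and 22.8%) and the median was 0.01. At 48 h 41 fell and 9 rose (all genes, 31.6% each way), with a median of -0.19. At 72 h 36 fell and 6 rose (30.5% and 29.7%), with a median of -0.10 that became 0.05 with library totals alone and 0.01 with upper quartile factors. Library totals alone, which took the median of all genes to 0.14, 0.19 and 0.17, gave 9, 25 and 25 members lower and 24, 22 and 21 higher at the 3 times, and upper quartile factors gave 10, 29 and 26 lower and 19, 17 and 13 higher. Relative to the median of all genes, the member median lay at -0.02, -0.21 and -0.12 in this clone and at -0.19, -0.29 and -0.28 in clone 1. The members of both clones moved further between 24 and 72 h, with 28 lower and 5 higher in clone 1 (29.1% of all genes changed in either direction) and 36 lower and 4 higher in clone 3 (33.5%).

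In shXBP1 clone 1 the decrease was present at 24 h. At that time 33 members fell and 2 rose, when 12.8% of all genes fell and 13.9% rose. At 48 h 36 fell and 3 rose (15.5% and 16.6%), and at 72 h 39 fell and 2 rose (16.8% each way). The medians were -0.19, -0.17 and -0.20. Between 24 and 72 h edgeR called no member (0.205% of all genes changed), with 2 higher and 2 lower at an unadjusted p under 0.05, 1 lower by DESeq2 and none by limma.

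In shXBP1 clone 18 few members passed the test. No member rose and 2 fell at 24 h (all genes, 0.291% and 1.30%), 6 rose and 1 fell at 48 h (2.28% and 3.50%), and 3 rose and 2 fell at 72 h (4.41% and 5.55%). Without the library set apart above, 0, 9 and 0 members rose (all genes, 1.46%, 5.78% and 3.09%) and 3, 2 and 1 fell (3.33%, 7.16% and 4.48%) at the 3 times. With library totals alone 8 members were higher and 0 lower at 48 h and 11 and 1 at 72 h, and with upper quartile factors 6 and 2 at 72 h. At 24 h 4 members were higher and 7 lower at an unadjusted p under 0.05, and DESeq2 and limma called 0 higher and 3 and 1 lower. Between 24 and 72 h edgeR, DESeq2 and limma called no member (edgeR, 0.125% of all genes), with 8 higher and 2 lower at an unadjusted p under 0.05. The median log2 fold change at 24, 48 and 72 h was 0.00, 0.07 and -0.02.

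The same course was seen in single libraries. The median over the members of the deviation from each gene's mean over all libraries, in log2 CPM, lay between 0.17 and 0.25 in the 0 h libraries of shIRE1 clone 1 and between -0.08 and -0.03 at 72 h. For shIRE1 clone 3 it lay between -0.02 and 0.11 at 0 h and between -0.18 and -0.12 at 48 h. For shXBP1 clone 1 it went from between 0.19 and 0.23 at 0 h to between -0.03 and 0 at 72 h. In these 3 clones the ranges compared did not overlap on the TMM scale. In shXBP1 clone 18 it lay between -0.09 and -0.04 at 0 h and between -0.08 and -0.02 at 72 h, so these ranges overlapped, and between 0 and 0.04 at 48 h, above the 0 h range. These ranges depend on the scaling, and ranges without it were not compared. The TMM factors of shIRE1 clone 3 were 0.982 to 0.985 at 0 h and 1.076 to 1.08 at 48 h. With library totals alone the member median log2 fold change was -0.12 in shIRE1 clone 1 at 72 h. It was -0.02 in shIRE1 clone 3 at 48 h and -0.11 in shXBP1 clone 1 at 72 h. The summed level of the 78 mRNAs in shIRE1 clone 1 was 5762, 6090 and 5959 CPM at 0 h and between 5045 and 5183 CPM at 72 h.

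**Figure D1:**
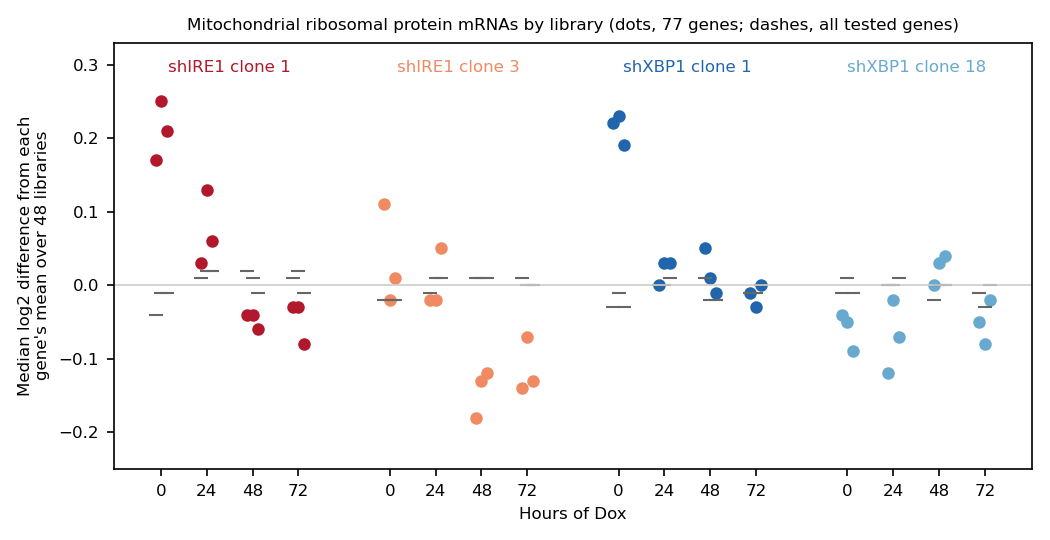
Median over the MRP genes of each library's deviation from the gene's mean over all 48 libraries (y axis, log2 CPM) against hours of Dox (x axis). The clones stand side by side with one dot per library, and grey dashes give the median over all tested genes. On this TMM scale the 0 h libraries of shIRE1 clone 1 (0.17 to 0.25) and shXBP1 clone 1 (0.19 to 0.23) lie above all their later libraries, and those of shXBP1 clone 18 (-0.09 to -0.04) do not.

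Members of both subunits were among those that fell, and their counts are read against the 31.1%, 30.5% and 16.8% of all genes that fell at 72 h in shIRE1 clones 1 and 3 and shXBP1 clone 1. In shIRE1 clone 1 at 72 h 7 of 15 tested small-subunit members with a bacterial homologue fell and 1 rose, and 7 of 10 particular to mitochondria fell and 2 rose. Of the large-subunit members, 22 of 30 with a bacterial homologue fell and 1 rose, and 13 of 21 particular to mitochondria fell and 2 rose. The 4 groups of shIRE1 clone 3 had 6, 6, 15 and 8 members lower and 2, 1, 2 and 1 higher at 72 h. Those of shXBP1 clone 1 had 6, 5, 16 and 12 lower and 0, 1, 0 and 1 higher. MRPS36, which is no subunit, fell in shIRE1 clones 1 and 3 (log2 fold changes -0.37 and -0.28) and had values of 0.12 and 0.08 in shXBP1 clones 1 and 18, which did not pass the test. Offsets that follow the trend with GC content over all genes in each library (GC-corrected offsets) were chosen after seeing the data. With them MRPS36 no longer passed in shIRE1 clone 3 (-0.04, adjusted p = 0.682).

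In both shIRE1 clones 14 members fell at 24 h, 35 at 48 h and 31 at 72 h, when 15.8%, 21.9% and 21.4% of all genes tested in the pair fell in both. At 72 h 16 of these also fell in shXBP1 clone 1 (6.07% of all genes fell in the 3 clones): MRPS34, MRPL51, MRPL2, MRPS30, MRPL3, MRPL37, MRPS15, MRPS26, MRPL9, MRPL58, MRPL11, MRPS22, MRPS23, MRPS18B, MRPL20 and MRPL12. MRPL24 was the one member lower in all 4 clones at a single time, 48 h, when 0.818% of all genes were. Members called in opposite directions in the shIRE1 clones were MRPL4 and MRPS7 at 24 h and MRPL4 and MRPL45 at 48 h. The share of all genes called so was not counted. At 72 h 7 members were called in none of the clones, as were 15.7% of all genes, namely MRPS35, MRPL28, MRPS18C, MRPS16, MRPL53, MRPL33 and MRPS21.

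**Figure D2:**
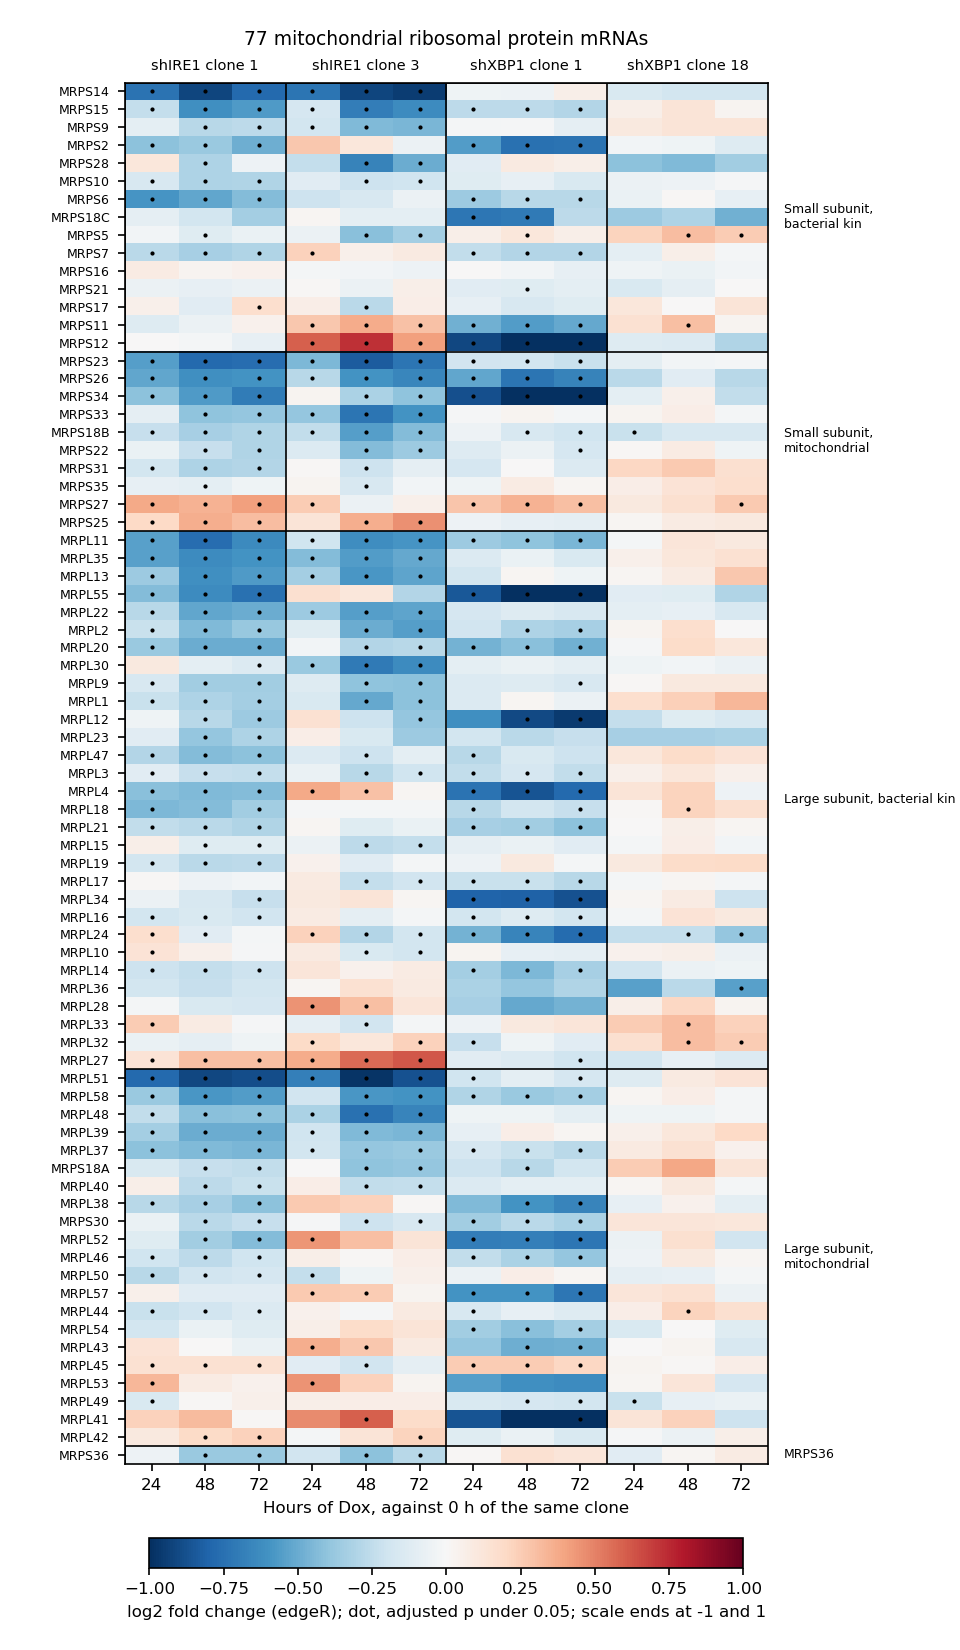
Log2 fold change against 0 h of the 77 tested MRP genes (rows, grouped by role) at 24, 48 and 72 h in the 4 clones (columns), on a colour scale from -1 to 1, with a dot where edgeR's adjusted p was under 0.05. Falls run through the 4 role groups in shIRE1 clones 1 and 3 and shXBP1 clone 1, and few dots stand in shXBP1 clone 18.

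MRPL51 had the deepest fall in shIRE1 clone 1. It encodes a large-subunit protein particular to mitochondria and lies on chromosome 12 (GRCh38, minus strand, chr12:6491886-6493841), where it overlaps NCAPD2. Its level in shIRE1 clone 1 was 185, 192 and 184 CPM at 0 h, 108, 114 and 108 at 24 h, 96.4, 102 and 102 at 48 h and 98.5, 104 and 100 at 72 h. Its level in shIRE1 clone 3 went from 177, 162 and 161 CPM to 107, 101 and 110 at 24 h and 91.1, 91.3 and 98.0 at 72 h. No library with Dox overlapped the 0 h libraries of its clone. The log2 fold changes at 72 h were -0.89 ± 0.039 (SE, adjusted p = 3.78e-13) and -0.87 ± 0.054 (adjusted p = 2.06e-09), and those at 24 h -0.78 ± 0.039 and -0.68 ± 0.054.

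In the shXBP1 clones the differences of MRPL51 were smaller. In clone 1 it was 186, 194 and 177 CPM at 0 h and 165, 171 and 170 at 72 h, a fall of small size (-0.17 ± 0.043, adjusted p = 0.0112). In clone 18 it was 128, 128 and 130 CPM at 0 h and 126, 130 and 170 at 72 h, where 170 belongs to the library set apart above. The 2 other libraries overlapped the 0 h range and the test was not passed (0.14 ± 0.086, adjusted p = 0.303).

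MRPS14, a homologue of bacterial S14 in the small subunit, followed the same pattern (minus strand, chr1:175010789-175023425, overlapping CACYBP). In shIRE1 clone 1 it went from 19.4, 21.2 and 18.5 CPM at 0 h to 11.9, 12.3 and 11.5 at 24 h and 10.0, 11.8 and 12.7 at 72 h. The values in shIRE1 clone 3 went from 21.6, 19.4 and 19.1 to 11.9, 11.6 and 13.4 at 24 h and 10.2, 10.6 and 11 at 72 h. All libraries with Dox lay below those without, and the 72 h log2 fold changes were -0.78 ± 0.09 and -0.95 ± 0.08 (adjusted p = 3.37e-07 and 6.92e-08). The shXBP1 clone 1 values at 0 h of 19.6, 21.4 and 20.2 CPM were overlapped by the 72 h values of 20.3, 21.7 and 22.7, and in shXBP1 clone 18 values of 22.7, 24.5 and 24.1 CPM stood against 20.8, 21.7 and 20.4. Neither passed the test (0.06 ± 0.067 and -0.18 ± 0.074, adjusted p = 0.559 and 0.139), although the clone 18 value did with the GC-corrected offsets (-0.23, adjusted p = 0.035).

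MRPS23, a small-subunit protein particular to mitochondria (minus strand, chr17:57834781-57850056, overlapping no annotated gene), fell in 3 clones. In shIRE1 clone 1 it went from 138, 144 and 141 CPM to 97.1, 98.8 and 97.2 at 24 h and 83.0, 86.9 and 81.2 at 72 h. In shIRE1 clone 3 it went from 121, 117 and 114 to 91.7, 85.1 and 85.7 at 24 h and 68.0, 70.0 and 79.5 at 72 h. The 72 h log2 fold changes were -0.76 ± 0.037 and -0.73 ± 0.06 (adjusted p = 1.59e-12 and 6.01e-08), and that in shXBP1 clone 1 was -0.22 ± 0.053 (adjusted p = 0.00844).

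Other large falls shared by the shIRE1 clones were those of MRPS26, MRPL11, MRPL13 and MRPL35. MRPS26, a small-subunit protein particular to mitochondria, went from 40.6, 41.6 and 41 to 26.9, 29.3 and 25.6 CPM at 72 h in clone 1 and from 37.1, 31.6 and 34.2 to 24.3, 22.8 and 20.2 in clone 3 (log2 fold changes -0.60 ± 0.056 and -0.65 ± 0.089). It also fell in shXBP1 clone 1 (-0.67 ± 0.15, adjusted p = 0.00548). With the GC-corrected offsets MRPS26 stood at -0.76 and -0.86 in shIRE1 clones 1 and 3 and at -0.31 in shXBP1 clone 1. MRPL11, the homologue of a bacterial stalk-base protein, went from 78.0, 83.5 and 81.9 to 51.2, 53.7 and 51.7 CPM in shIRE1 clone 1 and from 65, 60.6 and 59.4 to 42.4, 42.8 and 40.9 in clone 3 (-0.64 ± 0.044 and -0.59 ± 0.062). The 0 and 72 h values overlapped in neither gene in these clones. MRPL13, a homologue of bacterial L13, fell in both shIRE1 clones (-0.57 ± 0.05 and -0.53 ± 0.076), with 82.8, 85.2 and 78.6 against 55.5, 57.3 and 54.4 CPM in clone 1. MRPL35, a homologue of bacterial L35, went from 154, 156 and 141 to 98.2, 99.5 and 102 CPM in clone 1 and from 124, 119 and 119 to 83.5, 83.1 and 94.2 in clone 3 (-0.60 ± 0.045 and -0.51 ± 0.061). In both shXBP1 clones MRPL13 and MRPL35 did not pass the test at 72 h, but with the GC-corrected offsets both were lower in clone 1 (-0.14 and -0.25, adjusted p = 0.00161 and 6.82e-06).

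**Figure D3:**
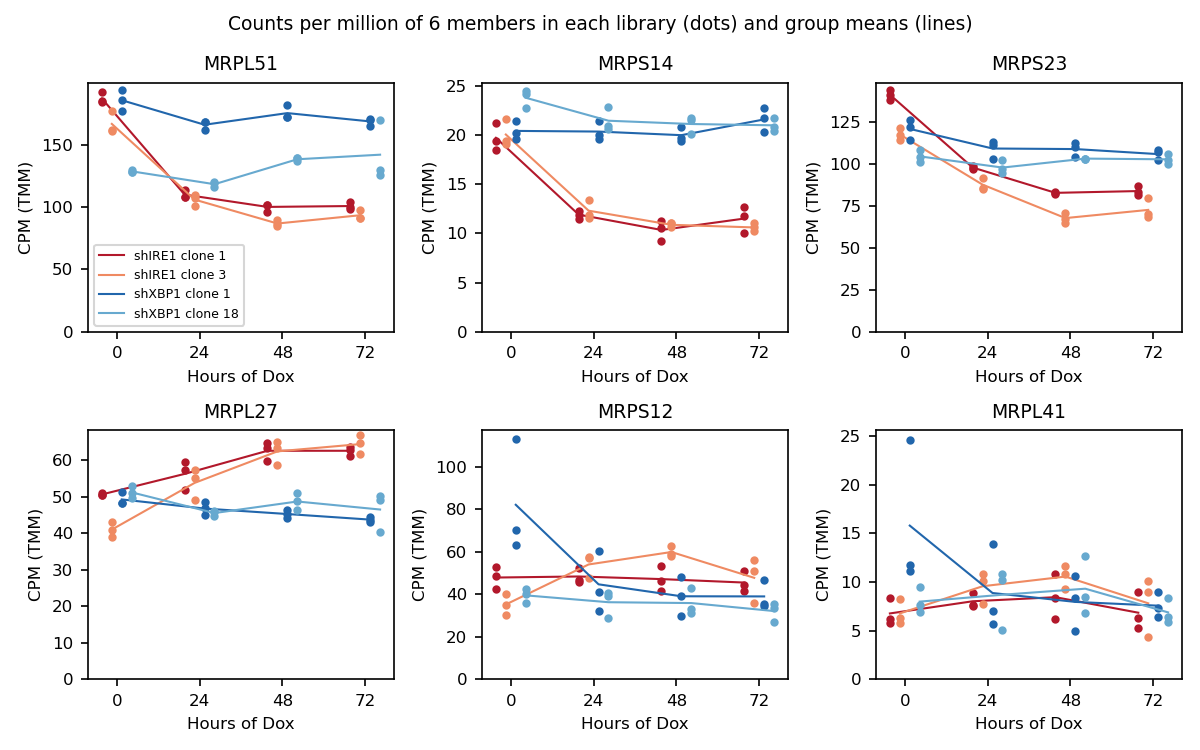
CPM of 6 MRP genes (y axis, each panel from 0) in every library against hours of Dox (x axis), with one colour per clone and one point per library. MRPL51, MRPS14 and MRPS23 drop in the shIRE1 clones, MRPL27 climbs in them, and MRPS12 and MRPL41 are scattered at 0 h in shXBP1 clone 1, with 1 library of MRPS12 at 113 CPM.

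A few members rose against the group. MRPL27, the homologue of a bacterial protein near the peptidyl transferase centre (minus strand, chr17:50367857-50373207, overlapping no annotated gene), rose in both shIRE1 clones at each of the 3 times. In clone 1 it was 50.4, 50.5 and 50.9 CPM at 0 h, 51.9, 57.3 and 59.5 at 24 h and 61.2, 63.7 and 62.8 at 72 h, and in clone 3 it was 43.0, 40.9 and 39.0 at 0 h, 49.0, 55.1 and 57.2 at 24 h and 61.8, 64.6 and 66.8 at 72 h. The groups did not overlap with 0 h at any of these times. The 72 h log2 fold changes were 0.30 ± 0.052 and 0.62 ± 0.065 (adjusted p = 5.17e-05 and 8.95e-07). MRPL27 fell instead in shXBP1 clone 1, from 51.3, 48.2 and 48.2 to 43.6, 44.5 and 43.0 CPM at 72 h (-0.20 ± 0.055, adjusted p = 0.0167).

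MRPS25 and MRPL42 also rose in both shIRE1 clones at 72 h, and both are particular to mitochondria. MRPS25, which overlaps NR2C2, went from 78.7, 80.0 and 80.7 to 99.1, 100 and 100 CPM in clone 1 and from 77.5, 74.7 and 78.3 to 110, 106 and 109 in clone 3 (0.31 ± 0.04 and 0.46 ± 0.052). MRPL42 went from 71.2, 68.0 and 65.5 to 78.5, 80.3 and 81.8 CPM in clone 1 and from 71.1, 62.6 and 59.6 to 72.3, 75.0 and 83.6 in clone 3 (0.23 ± 0.057 and 0.22 ± 0.068). No 72 h library overlapped the 0 h libraries of its clone in either gene. MRPS27, a small-subunit protein of the pentatricopeptide repeat family and the member with the highest mean CPM (247), rose in shIRE1 clone 1 from 224, 232 and 235 to 301, 314 and 308 CPM and in shXBP1 clone 1 from 181, 202 and 196 to 233, 245 and 247 (0.41 ± 0.037 and 0.30 ± 0.05). With shIRE1 clone 3 it rose at 24 h alone (0.25, adjusted p = 0.000853) and stood at 0.05 at 72 h (adjusted p = 0.394). MRPL45, which lies near the exit tunnel, rose at 72 h in both clones numbered 1 (0.15 ± 0.039 in shIRE1 and 0.21 ± 0.063 in shXBP1).

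Members with special roles varied among themselves. MRPL3, which reaches towards the peptidyl transferase centre, fell at 72 h in shIRE1 clones 1 and 3 and shXBP1 clone 1 (-0.24 ± 0.039, -0.20 ± 0.053 and -0.25 ± 0.055). With the GC-corrected offsets its values in these clones were -0.20, -0.10 and -0.34. MRPL58 (ICT1), a peptidyl-tRNA hydrolase that frees stalled ribosomes, fell in the same 3 clones (-0.56, -0.60 and -0.34), as did MRPS22 (-0.30, -0.36 and -0.17). MRPL44, which holds a fold of the RNase III type, fell at 72 h in shIRE1 clone 1 (-0.14, adjusted p = 0.007, and 0.01 with library totals alone). MRPL44 with the GC-corrected offsets was also lower in shXBP1 clone 1 (-0.21, adjusted p = 8.73e-05) and was higher in shIRE1 clone 3 (0.15, adjusted p = 0.0156). Of the 3 relatives of bacterial S18, MRPS18B fell in 3 clones (-0.30, -0.43 and -0.20), MRPS18A in the shIRE1 clones (-0.25 and -0.39), and MRPS18C passed the test in none at 72 h. MRPS30, which sits in the large subunit in spite of its name, fell in both shIRE1 clones and shXBP1 clone 1 (-0.23, -0.16 and -0.32). MRPS2, the homologue of bacterial S2, fell in shIRE1 clone 1 (-0.49) and shXBP1 clone 1 (-0.74).

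In shXBP1 clone 1 the largest falls at 72 h were of GC-rich members whose libraries were scattered. MRPS12 (plus strand, chr19:38930944-38933168), whose bacterial homologue helps to read the codon, has a transcript GC content of 59.6%. It was 113, 70.3 and 63.2 CPM at 0 h, 32.2, 60.6 and 41.2 at 24 h and 46.7, 34.6 and 35.6 at 72 h, and the 0 and 72 h libraries did not overlap (-1.10 ± 0.27, adjusted p = 0.00882). MRPL55, a large-subunit protein (GC 63.7%), went from 23.2, 13.2 and 12.1 to 8.81, 7.06 and 7.14 CPM (-1.10 ± 0.24, adjusted p = 0.00449). In both genes replicate 1 stood far above the other 0 h libraries.

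MRPL41 (plus strand, chr9:137551879-137552555, GC 66.7%), particular to mitochondria, was 24.6, 11.7 and 11.1 CPM at 0 h and 9.00, 7.30 and 6.37 at 72 h (-1.09 ± 0.39, adjusted p = 0.0488). MRPL12, a stalk protein that also binds the mitochondrial RNA polymerase, was 55.1, 26.4 and 24.4 CPM at 0 h and 21.6, 16.7 and 16.9 at 72 h (-0.96 ± 0.27, adjusted p = 0.0171). MRPS34, particular to mitochondria, was 144, 79.9 and 80.2 CPM at 0 h and 53.8, 46.1 and 48.2 at 72 h (-1.06 ± 0.24, adjusted p = 0.00532). Here too replicate 1 at 0 h was the highest library by far. When it was left out, MRPL41 (-0.61) and MRPL12 (-0.48) no longer passed the test, MRPS12 (-0.79) and MRPL55 (-0.74) did, and 2, 3 and 1 members rose and 18, 24 and 31 fell at 24, 48 and 72 h. The share of all genes called in that fit is not given here, so these counts stand without a background.

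GC content moved with these values. Among the 77 members of shXBP1 clone 1, Spearman's correlation across genes between the log2 fold change and transcript GC content was -0.61, -0.78 and -0.76 at 24, 48 and 72 h, and -0.21, -0.41 and -0.34 over all genes with a GC value. Genes are not independent replicates, and all the points of a comparison share its libraries. The 25 members of lowest GC content (up to 44.5%) had a median of -0.09 at 72 h and the 26 of highest (from 51.9%) one of -0.55. Libraries of one group also differed in this respect. The correlation across the members of the deviation with GC content was -0.59, 0.74 and 0.27 in the 24 h replicates of shXBP1 clone 1. The member correlation was 0.56, 0.38 and 0.20 in shIRE1 clone 3 and -0.02, 0.02 and -0.02 in shIRE1 clone 1. With the GC-corrected offsets 60 members fell and 2 rose in shXBP1 clone 1 at 72 h (all genes, 24.5% and 23.7%), the median was -0.24, and MRPS12, MRPL55, MRPL41 and MRPL12 stood at -0.86, -0.63, -0.42 and -0.41. MRPL51, MRPS23 and MRPS14 in shIRE1 clone 1 then stood at -0.91, -0.76 and -0.71. The offsets follow the trend over all genes, and the members still varied with GC content. Their correlation with it was then -0.36, -0.38 and -0.38 at 24, 48 and 72 h in shXBP1 clone 1. It was -0.34, -0.35 and -0.33 in shIRE1 clone 1 and -0.19, -0.17 and -0.23 in shIRE1 clone 3. In shXBP1 clone 18 these offsets gave 1 member higher and 3 lower at 24 h (all genes, 1.37% and 3.12%), 15 higher and 2 lower at 48 h (5.81% and 6.96%) and 3 higher and 5 lower at 72 h (7.7% and 8.04%).

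**Figure D4:**
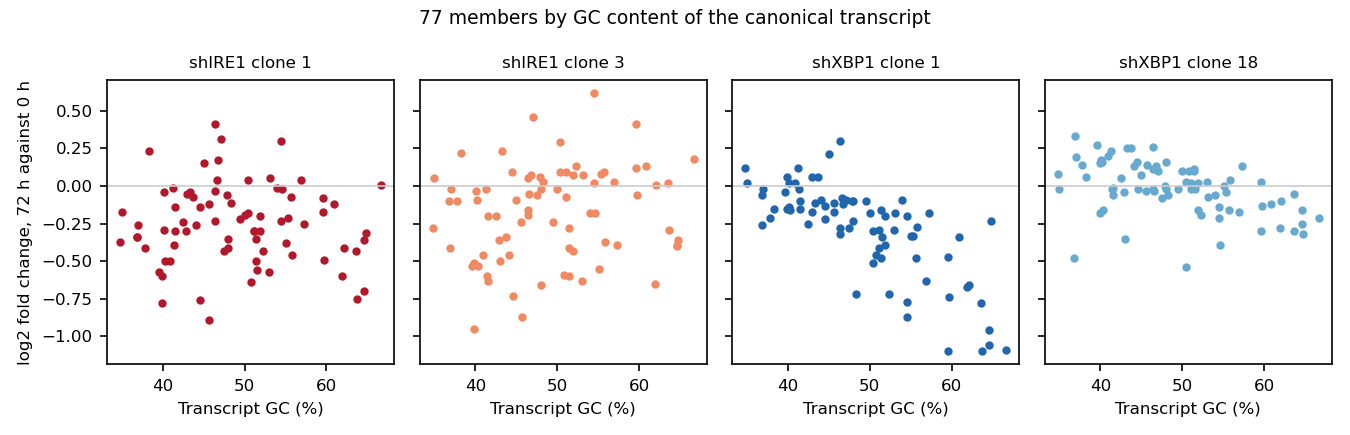
Log2 fold change at 72 h against 0 h (y axis) of the 77 MRP genes against the GC content of the transcript in percent (x axis), one panel per clone and one point per gene. In shXBP1 clone 1 the values decline with GC content (Spearman -0.76), and in shIRE1 clone 1 they do not (-0.02).

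MRPL24, a homologue of bacterial L24 (minus strand, chr1:156737303-156741590, overlapping no annotated gene), was the member that fell in both shXBP1 clones at 72 h (all genes, 2.19%). In clone 1 it was 115, 105 and 115 CPM at 0 h, 79.0, 82.5 and 86.1 at 24 h, 73.0, 71.1 and 69.8 at 48 h and 64.4, 65.9 and 69.5 at 72 h (-0.77 ± 0.057, adjusted p = 3.23e-06). In clone 18 it was 88.7, 83.9 and 84.5 CPM at 0 h, 68.9, 75.5 and 74.5 at 24 h and 66.4, 62.1 and 67.2 at 72 h (-0.39 ± 0.057, adjusted p = 0.000933, and -0.41 without the library set apart). No library with Dox overlapped those without in either clone. In the shIRE1 clones it rose at 24 h (0.17 and 0.23), fell at 48 h (-0.11 and -0.29), and at 72 h was lower in clone 3 (-0.18 ± 0.053, adjusted p = 0.00825) and, with the GC-corrected offsets, also in clone 1 (-0.09, adjusted p = 0.0152).

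Beside MRPL24, the members called in shXBP1 clone 18 at 72 h were MRPL36 (-0.54 ± 0.15, adjusted p = 0.0426) on the lower side and MRPS27, MRPS5 and MRPL32 on the higher side. MRPL36, a homologue of bacterial L36 that is scarce here, went from 5.68, 5.68 and 5.87 to 4.07, 3.89 and 3.90 CPM without overlap. MRPS5 (0.25 ± 0.074) and MRPL32 (0.25 ± 0.07) are homologues of bacterial S5 and L32. MRPS27 was 185, 192 and 186 CPM at 0 h and 202, 213 and 257 at 72 h (0.26 ± 0.073, adjusted p = 0.0426). Without the library set apart, MRPL36 (-0.52), MRPS27 (0.15), MRPS5 (0.21) and MRPL32 (0.24) no longer passed the test. With the GC-corrected offsets MRPS5 (0.21, adjusted p = 0.0703) and MRPL32 (0.20, adjusted p = 0.0508) did not pass either.

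Whether the MRP response depended on the shRNA was tested as the difference between the mean log2 fold changes of the shIRE1 clones and of the shXBP1 clones, in one fit of the 48 libraries. Each shRNA is represented by 2 clones and the error comes from libraries within clones, so these p-values do not cover variation between clones. At 24 h 14 members were lower with shIRE1 and 14 higher (all genes, 19.7% and 19.1%), with a median difference of 0.04. At 48 h 40 were lower and 12 higher (28.0% and 28.9%), with a median of -0.16, and at 72 h 30 were lower and 13 higher (27.4% and 28.0%), with a median of -0.08. With library totals alone 8, 31 and 23 were lower and 31, 20 and 20 higher at the 3 times, and with upper quartile factors 10, 34 and 24 lower and 22, 19 and 18 higher. These took the median difference of all genes to 0.12, 0.14 and 0.12 and to 0.09, 0.12 and 0.11. Without the library set apart 19, 42 and 32 were lower (all genes, 21%, 28.5% and 27.1%). Those higher were then 14, 12 and 11 (19%, 29% and 27.2%). Between the clones numbered 1 alone, 14 were lower and 10 higher with shIRE1 at 72 h, and the share of all genes is not given here.

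On the side lower with shIRE1, MRPL51 differed by -0.57 ± 0.06 at 24 h and -0.87 ± 0.06 at 72 h (adjusted p = 2.85e-10 and 1.06e-15). MRPS14 differed by -0.65 ± 0.074 and -0.81 ± 0.075 (adjusted p = 2.82e-09 and 5.53e-12). MRPS23 differed by -0.36 ± 0.048 and -0.63 ± 0.048, and MRPL35 by -0.45 ± 0.069 and -0.55 ± 0.069. These 4 genes were lower with shIRE1 at both times. MRPL13 differed by -0.66 ± 0.09 at 72 h, MRPL11 by -0.44 ± 0.064, and MRPS36 by -0.43. MRPS36 no longer passed with the GC-corrected offsets (-0.16, adjusted p = 0.0798). For MRPS26 the difference did not pass the test (-0.15, adjusted p = 0.256), and with the GC-corrected offsets it did (-0.58, adjusted p = 2.17e-08).

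On the side higher with shIRE1, MRPL27 differed by 0.39 at 24 h and by 0.63 ± 0.065 at 72 h (adjusted p at 72 h = 9.03e-11), and MRPS25 by 0.38 ± 0.047 at 72 h. MRPL24 differed by 0.55 ± 0.048 and 0.48 ± 0.048 at 24 and 72 h, with the fall in the shXBP1 clones described above. MRPS12 differed by 0.81 ± 0.19 and 0.86 ± 0.19 (adjusted p = 0.00082 and 0.000252). In shIRE1 clone 3 MRPS12 rose from 34.9, 30.3 and 40.3 to 51.1, 56.2 and 35.9 CPM at 72 h with overlap (0.41 ± 0.14, adjusted p = 0.0219), and in shXBP1 clone 1 it fell. In shIRE1 clone 1 MRPS12 did not pass at 72 h (-0.08, adjusted p = 0.446) and fell with the GC-corrected offsets (-0.21, adjusted p = 0.000629). MRPL53 differed by 0.65 ± 0.18 and 0.44 ± 0.18 and MRPL52, at 24 h, by 0.53 ± 0.15, and both encode large-subunit proteins particular to mitochondria. Across the members this difference also went with GC content (Spearman 0.59 at 24 h and 0.50 at 72 h over 78 genes), and with the GC-corrected offsets MRPS12 differed by 0.55 at 72 h, MRPL27 by 0.50 and MRPL51 by -0.81, while MRPL53 no longer passed (0.23, adjusted p = 0.16).

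The clones of one shRNA differed in MRP level before Dox. At 0 h 31 members were higher in shIRE1 clone 1 than in clone 3 and 3 lower (all genes, 19.2% and 21.4%), with a median difference of 0.17. At 0 h in shXBP1 clone 1 50 members were higher than in clone 18 and 2 lower (24.5% and 26.8%), with a median of 0.25. Between the shIRE1 clones MRPS6 and MRPS7, homologues of bacterial S6 and S7, differed most. MRPS7 was 112, 121 and 118 CPM in clone 1 and 83.1, 76.2 and 78.8 in clone 3 (0.54 ± 0.056, adjusted p = 3.19e-10), and MRPS6 was 49.7, 54.9 and 52.7 against 39.5, 33.2 and 34.2 (0.54 ± 0.074). MRPL4 differed by 0.48, and MRPL45 (-0.20 ± 0.053), MRPL10 (-0.18 ± 0.058) and MRPS27 (-0.14) were lower in clone 1.

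Between the shXBP1 clones MRPS12 (1.05 ± 0.19), MRPL41 (0.99 ± 0.32) and MRPL51 (0.52 ± 0.06) were higher in clone 1 at 0 h, and MRPS14 (-0.23 ± 0.074) and MRPS33 (-0.16 ± 0.065) were lower. With the GC-corrected offsets 60 members were higher and 0 lower (all genes, 29.8% and 27.2%), MRPL41 stood at 0.45, and MRPS14 (-0.11, adjusted p = 0.18) and MRPS33 (-0.05, adjusted p = 0.478) no longer passed. MRPS24 was called too (1.69 ± 0.73, adjusted p = 0.0493), with 0.501, 0.405 and 0.146 CPM in clone 1 and 0.165, 0.0652 and 0.114 in clone 18, which overlap and amount to few counts. MRPS33, a small-subunit protein particular to mitochondria, was 41, 47.5 and 41.6 CPM in clone 1 and 45.6, 49.4 and 49.0 in clone 18, also with overlap. Its response set the shRNAs apart as well, with -0.39 and -0.60 in shIRE1 clones 1 and 3 at 72 h and a difference from shXBP1 of -0.47.

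The responses of the clones were compared as well. Against shIRE1 clone 3, clone 1 had 18, 14 and 13 members with a lower response and 4, 9 and 5 with a higher one at 24, 48 and 72 h. The medians were -0.14, -0.07 and -0.07. Together these were 22, 23 and 18 of 78 members, a share close to or below that of all genes (28.2%, 30.8% and 27.5% in either direction). Against shXBP1 clone 18, clone 1 had 23, 37 and 31 lower and 2, 2 and 0 higher (17.1%, 24.1% and 24.6%), with medians of -0.17, -0.24 and -0.26. Without the library set apart 24, 42 and 28 were lower (all genes, 8.41%, 13.3% and 9.13%) and 2, 2 and 0 higher (11.2%, 13.3% and 10.7%). The 0 h libraries enter both the level at 0 h and the response, so the higher starting level of the clones numbered 1 and their deeper response are not independent. At 72 h 3 members had a higher response in shXBP1 clone 1 at an unadjusted p under 0.05, and DESeq2 and limma called none.

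Members with the ETS letters in a promoter window are given beside those without. At 72 h 10 of 12 with the letters fell and 1 rose in shIRE1 clone 1 (median -0.38), when 33 of 56 without fell and 5 rose (-0.23). In shIRE1 clone 3 it was 5 lower and 1 higher (-0.06) against 24 and 5 (-0.07), and in shXBP1 clone 1 10 and 0 (-0.24) against 27 and 2 (-0.19). Of the genes whose promoters are printed above, MRPS34 fell in shIRE1 clones 1 and 3 and shXBP1 clone 1 (-0.70 ± 0.092, -0.40 ± 0.1 and -1.06 ± 0.24). MRPL27, with 2 matches, rose in both shIRE1 clones. A part of these letters in the responses was not tested. Members with the YY1 letters had medians of -0.24, 0.03 and -0.19 in these clones, and those without -0.25, -0.09 and -0.24.

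Other gene groups of mitochondrial gene expression were counted in the same fits. At 72 h 31.1%, 30.5%, 16.8% and 5.55% of all genes fell and 32.5%, 29.7%, 16.8% and 4.41% rose in shIRE1 clones 1 and 3 and shXBP1 clones 1 and 18. Of 10 regulators of mitochondrial biogenesis, 7, 6, 4 and 0 fell at 72 h in shIRE1 clones 1 and 3 and shXBP1 clones 1 and 18, and 1, 1, 2 and 0 rose. TFAM, which packages mitochondrial DNA and was not among these 10, went from 235, 237 and 216 to 134, 134 and 137 CPM in shIRE1 clone 1 (-0.77 ± 0.046). It also fell in shIRE1 clone 3 (-0.45 ± 0.051). Of the 10 regulators, NRF1 fell in the shIRE1 clones (-0.94 and -0.51), as did GABPA, the DNA-binding part of GABP (-0.36 and -0.44). Others moved differently between clones. The mean of PPARGC1A went from 93.2 to 158 CPM at 72 h in shXBP1 clone 1, and from 122 to 63.0 and 191 to 32.3 in shIRE1 clones 1 and 3. That of PPARGC1B went from 72.6 to 112 CPM in shIRE1 clone 3 and from 113 to 104 in shIRE1 clone 1. YY1 had means of 227 and 208 CPM at 0 h and 233 and 218 at 72 h in shIRE1 clones 1 and 3. In shXBP1 clones 1 and 18 they were 209 and 176 CPM at 0 h and 203 and 196 at 72 h. MYC fell in both shIRE1 clones and shXBP1 clone 1 (-0.82, -0.73 and -0.40) and stood at 0.11 in shXBP1 clone 18. Of 14 mitochondrial translation factors 6, 3, 4 and 0 fell and 4, 3, 2 and 0 rose, and of 25 ribosome assembly genes 10, 8, 9 and 0 fell and 9, 7, 1 and 0 rose.

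The 5 subunits of the mitochondrial ribosome with other names were split. CHCHD1 fell in both shIRE1 clones (-0.43 and -0.26), PTCD3 rose in both (0.31 and 0.27), and AURKAIP1 and GADD45GIP1 fell in the clones numbered 1 (-0.42 and -0.45 with shIRE1, -0.85 and -0.73 with shXBP1). Of the 13 mitochondrial mRNAs that this ribosome translates 5, 1, 9 and 1 fell and 3, 7, 0 and 0 rose, with medians of -0.03, 0.25, -0.37 and -0.12. MT-CO1, a core subunit of cytochrome c oxidase, rose in both shIRE1 clones (0.48 ± 0.037 and 0.50 ± 0.089) and fell in shXBP1 clone 18 (-0.33 ± 0.07). MT-ND1, a subunit of complex I, rose in shIRE1 clone 3 (0.83 ± 0.1) and fell in shXBP1 clone 1 (-0.55 ± 0.068). These mRNAs have short A tails and were read from poly-A selected RNA.

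The mRNAs of the cytosolic ribosomal proteins were counted as well. Of 77 genes, 62, 33, 35 and 1 rose and 5, 5, 5 and 5 fell at 72 h, with medians of 0.39, 0.16, 0.18 and -0.07 in shIRE1 clones 1 and 3 and shXBP1 clones 1 and 18. Levels of plasma cell markers moved at the same time. Of 8 markers 6, 8, 2 and 4 fell and 1, 0, 4 and 0 rose, and their summed level went from between 13800 and 15800 to between 8870 and 9610 CPM in shIRE1 clone 1 and from between 17000 and 18600 to between 7400 and 9200 in clone 3. The summed markers of other cells went from between 6.82 and 7.33 to between 16.3 and 19.6 CPM in shIRE1 clone 1. This sum was carried by CD3E, whose mean went from 5.54 to 15.1 CPM, and in part by the B cell marker MS4A1, from 0.231 to 1.98 CPM, and each of the other markers had a mean of at most 0.671 CPM at 0 and 72 h. The part of these shifts in the MRP values was not tested.

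**Figure D5:**
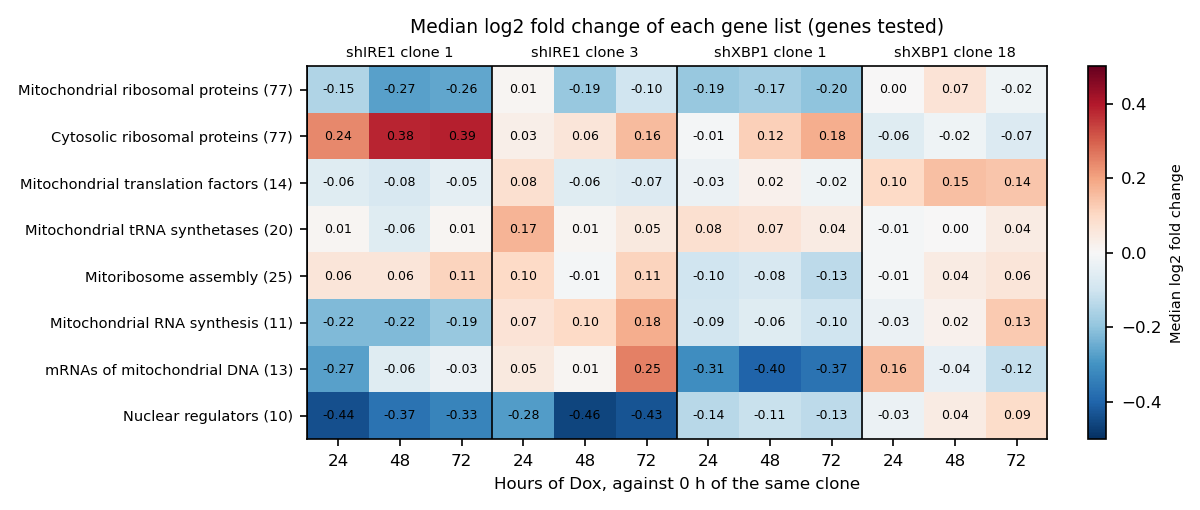
Median log2 fold change against 0 h (colour and printed value) of 8 gene lists (rows) at 24, 48 and 72 h in the 4 clones (columns). At 72 h the MRP genes lie at -0.26, -0.10 (0.05 with library totals alone) and -0.20 in shIRE1 clones 1 and 3 and shXBP1 clone 1, and the cytosolic ribosomal proteins at 0.39, 0.16 and 0.18.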

How the data were processed

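The libraries were made by the authors from poly-A selected RNA with a stranded kit and sequenced from one end to 50 bases. Read counts per gene, and log2 CPM after TMM scaling, were deposited by the authors as 2 tables. The submitters' processing notes name GSNAP, R 4.1.3, edgeR 3.32.1, limma 3.46.0 and the builds GRCh37 and hg19, with no role or order, and the methods name GRCh38 for a related experiment, so the build of the counts is uncertain and so is the use of strand. The files hold Ensembl identifiers and no coordinates; positions printed here are those of GENCODE 44 on GRCh38, matched by identifier.

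Groups came from the sample labels, whose titles write hours as days. Counts were fitted with edgeR 4.0.16 in R 4.3.3 (TMM, quasi-likelihood F test) after filterByExpr with a minimum count of 10 and a minimum total count of 15. Each clone's 12 libraries formed one fit, on 16603 to 17204 genes, and differences between clones or shRNAs were taken from one fit of 48 libraries and 18445 genes. The Benjamini-Hochberg adjustment ran over every gene of a fit, calls needed an adjusted p under 0.05, and errors are standard errors of log2 fold changes. The replicates are described as biological, and p-values measure the spread between them. With 19177855 to 40767202 counts per library, scarce members such as MRPS24 and MRPS18C are measured least precisely. The scripts were tested on simulated data.

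The members and gene lists were chosen with earlier results of these data known. Named members are, by rule, the 3 largest rises and falls per clone at 72 h, the 5 largest each way shared by the clones of an shRNA, the 4 largest each way in the difference at 24 and 72 h, the 3 largest each way between clones at 0 h, the highest, the lowest and the filtered member, and 13 members and 5 other genes named for their role. Members named beyond this rule in lists of calls shared between clones, and genes named from the other lists, were chosen after their values were seen. Alternatives were RLE and upper quartile factors, library totals alone, no filter, all libraries in one fit, DESeq2 1.42.0, limma 3.58.1 on the deposited log2 values, a replicate block, a fold of at least 1.2, single clone pairs, leaving out each library and, chosen after seeing the data, offsets corrected for GC content (lowess with a span of 0.3).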

Additional observations from a re-analysis of the deposited data

Results flagged for a closer look

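Results are listed here where the test of a difference between 2 groups was passed. The response differed between shIRE1 and shXBP1 for 28, 52 and 43 of 78 members at 24, 48 and 72 h. With shIRE1 14, 40 and 30 of them were lower (all genes, 19.7%, 28.0% and 27.4%). Those higher were 14, 12 and 13 (19.1%, 28.9% and 28.0%). At 24 and 72 h the share of members that differed in either direction was not above that of all genes. Between the shIRE1 clones the response differed for 22, 23 and 18 members, a share close to or below that of all genes (28.2%, 30.8% and 27.5%). Between the shXBP1 clones it differed for 25, 39 and 31 members (all genes, 17.1%, 24.1% and 24.6%). At 24 h the members furthest apart between the shRNAs on the log2 scale were MRPS14 (-0.65), MRPL51 (-0.57), MRPL35 (-0.45) and MRPS23 (-0.36), all lower with shIRE1, and MRPS12 (0.81), MRPL53 (0.65), MRPL24 (0.55) and MRPL52 (0.53), all higher with shIRE1. At 72 h they were MRPL51 (-0.87), MRPS14 (-0.81), MRPL13 (-0.66) and MRPS23 (-0.63) on the lower side and MRPS12 (0.86), MRPL27 (0.63), MRPL24 (0.48) and MRPL53 (0.44) on the higher side. With the GC-corrected offsets MRPL51, MRPS14, MRPL13 and MRPS23 stood at -0.81, -0.62, -0.47 and -0.53 at 72 h, and MRPS12, MRPL27 and MRPL24 at 0.55, 0.50 and 0.35, and MRPL53 no longer passed the test (0.23, adjusted p = 0.16).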

How the results depend on the processing

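Of 700 counts of members called in either direction under the alternatives, 633 lay within 1.5 times the count reported. Leaving out single libraries made up 480 of the 700. These counts do not show a change in direction. With library totals alone the 24 h calls in shIRE1 clone 1 went from 38 lower and 8 higher to 18 and 19. Those in shIRE1 clone 3 went from 17 lower and 13 higher to 9 and 24. Both count as within 1.5 times. Of 9796 values of named members 9242 kept their direction and side of the threshold, 313 no longer passed it, 233 newly passed it and 8 turned sign. With library totals alone, MRPL10, MRPL24 and MRPL44 stood at 0.14, 0.12 and 0.01 in shIRE1 clone 1 at 72 h. With GC-corrected offsets, chosen after seeing the data, MRPL4 stood at -0.24 in shIRE1 clone 3 at 72 h, and the differences at 72 h of MRPL12, MRPL4, MRPL55 and MRPS2 at -0.40, -0.32, -0.36 and -0.15. The cause was not tested.

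The counts that moved by more than 1.5 times were these. A fold of at least 1.2 left 24 members called at 24 h in shIRE1 clone 1, 18 in shIRE1 clone 3, 23 in shXBP1 clone 1, and 0, 4 and 2 at the 3 times in shXBP1 clone 18, as that rule only removes calls. Library totals alone gave 22 at 24 h and 27 at 72 h in shXBP1 clone 1, and 0 and 12 in shXBP1 clone 18. In shXBP1 clone 18 upper quartile factors gave 0 and 8 at 24 and 72 h, no filter 0, 4 and 9 at the 3 times, all 48 libraries in one fit 5, 13 and 13, DESeq2 10 at 72 h, and limma 1 at 24 h. GC-corrected offsets gave 59, 61 and 62 in shXBP1 clone 1, 4, 17 and 8 in shXBP1 clone 18, 36 and 32 for the response of the shIRE1 clones at 24 and 72 h, and 44 and 49 for that of the shXBP1 clones. Between the clones numbered 1 alone 24 members differed in response to the shRNAs at 72 h.

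Same-numbered replicates did not deviate together, with 5 of 72 correlations above 0.1, so the numbers do not pair the libraries. With a replicate block the counts in shXBP1 clone 18 were 0 at 24 h and 1 at 72 h, and the 21 other counts stayed within 1.5 times, with 46, 55 and 52 in shIRE1 clone 1.

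Leaving out each library in turn gave, at 24, 48 and 72 h, 43 to 48, 52 to 58 and 51 to 56 members called in shIRE1 clone 1, 23 to 37, 40 to 53 and 38 to 42 in shIRE1 clone 3, 19 to 39, 25 to 44 and 27 to 45 in shXBP1 clone 1, and 0 to 3, 0 to 11 and 1 to 14 in shXBP1 clone 18. For the difference between the shRNAs it gave 25 to 41, 47 to 55 and 38 to 49, for 0 h 27 to 38 and 47 to 53, and for the responses 18 to 24, 16 to 23 and 12 to 20 between the shIRE1 clones and 14 to 29, 28 to 44 and 22 to 38 between the shXBP1 clones. In shXBP1 clone 1 replicate 1 at 0 h (20), replicates 1 and 3 at 24 h (22 and 19) moved the 24 h count by over 1.5 times, replicate 2 at 48 h (25) the 48 h count and replicate 2 at 72 h (27) the 72 h count. For the 24 h response of the shXBP1 clones these were clone 18, 24 h, replicate 2 (14) and clone 1, 0 h, replicate 1 (14). In shXBP1 clone 18, whose counts are 2, 7 and 5, leaving out any of 10, 7 and 10 libraries did so, each 0 h library among them.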
